A study of Mus musculus with 9 samples.

Results

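Bidirectional protein-coding promoters are stretches of DNA from which 2 protein-coding genes are read in opposite directions, each away from the other. Members were the windows of the GpC methylation table on chromosomes 1 to 19 that held the 5′ ends of such a diverging pair, at most 1000 bp apart in GENCODE release M21 on mm10. There were 638 such windows, and 616 of them had a value in all 9 libraries, out of 786533 autosomal windows with complete values. Each gene counted by its outermost annotated 5′ end. The 616 windows held 631 diverging pairs of 1247 genes; 592 held exactly 2 protein-coding starts, 23 held 3 and 1 held 4. Of 734 diverging pairs on the autosomes, 653 fell within 1 window and 81 were divided between windows and were not members. The comparison set was the 17579 windows that held 1 protein-coding start only.

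The values came from nucleosome occupancy and methylome sequencing (NOMe-seq), in which a GpC methyltransferase marks open DNA in fixed nuclei and bisulfite sequencing reads the marks as percent GpC methylation. The cells were female mouse embryonic stem cells (mESCs) of the FVB/CAST F1 cross. They were expanded in 2i medium and differentiated by weaning into DME HiHi. One library was made at day 0, before differentiation, 4 from the non-silencing hairpin (Nons) control at days 4, 5, 6 and 7, and 4 from cells carrying the Smarcc1.6 hairpin (Smarcc1 knockdown) at the same days. Both arms were transduced on day 2 and selected with puromycin from day 3. Smarcc1 is a core subunit of the BAF nucleosome remodelling complex. All 4 knockdown libraries carried this 1 hairpin, and the table merged both alleles. Each combination of arm and day was sequenced as 1 library, and no combination was replicated. The values measure accessibility, not RNA, so neither the cell type nor the depletion of Smarcc1 was checked here. Read counts were not used here, and the sequencing depth remains unknown.

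Divergent gene pairs are common in mammalian genomes and are enriched for housekeeping functions, DNA repair among them. Their shared promoters usually lie in CpG islands and often lack a TATA box. The nucleosome-depleted region between the 2 starts serves both genes, with a positioned nucleosome at the front of each transcription unit. In mESCs, BAF complexes act at promoters and enhancers, where they slide or evict nucleosomes.

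The DNA between the starts was short. The distance between the 5′ ends had a median of 111.5 bp and quartiles of 61 and 209.5 bp, and it was 300 bp or less in 527 windows (85.6%). The following 6 spacers, printed on the plus strand of mm10 (GRCm38) from the gene on the minus strand to the gene on the plus strand, are the complete DNA between the 5′ ends of well-known pairs. Capitals mark the GpC dinucleotides with a cytosine that NOMe-seq can score, that is, GpC not followed by G on at least 1 strand. None of this DNA is exonic in the annotation.

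Col4a4/Col4a3, chr1:82586850-82586920: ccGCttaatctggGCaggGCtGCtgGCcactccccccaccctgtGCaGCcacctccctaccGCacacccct
Psmb1/Tbp, chr17:15499752-15499887: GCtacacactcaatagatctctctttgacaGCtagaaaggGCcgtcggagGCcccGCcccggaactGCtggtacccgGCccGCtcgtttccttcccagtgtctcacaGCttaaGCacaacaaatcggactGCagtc
Brca1/Nbr1, chr11:101551956-101552148: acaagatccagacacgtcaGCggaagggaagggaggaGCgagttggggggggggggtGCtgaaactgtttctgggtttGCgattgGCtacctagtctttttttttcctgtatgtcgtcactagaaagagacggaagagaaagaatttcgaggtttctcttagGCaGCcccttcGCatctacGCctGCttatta
Tsc2/Nthl1, chr17:24632631-24632679: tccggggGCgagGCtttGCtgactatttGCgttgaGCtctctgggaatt
Osgep/Apex1, chr14:50924894-50924967: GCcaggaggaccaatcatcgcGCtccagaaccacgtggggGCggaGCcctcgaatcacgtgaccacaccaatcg
Mrps12/Sars2, chr7:28741821-28741991: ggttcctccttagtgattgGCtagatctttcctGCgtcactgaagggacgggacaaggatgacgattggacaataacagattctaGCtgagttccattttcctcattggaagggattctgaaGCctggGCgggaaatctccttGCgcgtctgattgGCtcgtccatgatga

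These spacers held from 6 scorable cytosines in the 74 bases between Osgep and Apex1 to 19 in the 136 bases between Psmb1 and Tbp. The Osgep/Apex1 spacer contained 2 CCAAT boxes and 2 E-boxes, and the Mrps12/Sars2 spacer contained 4 CCAAT boxes on either strand. The letters searched are given with the motif counts. A window of the table is longer than its spacer, with a median length of 2178.5 bp for members, so each value averages the spacer together with the flanking first exons and introns.

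Bidirectional promoters were more accessible than single-start promoters in all 9 libraries. At day 0 their median was 20.5% GpC methylation against 14.8% in windows with 1 start. Days 4, 5, 6 and 7 of the Nons control had medians of 26.2% against 18.9%, 38.7% against 30%, 18.9% against 14.3% and 13.2% against 8.77%. In the Smarcc1 knockdown they were 20.5% against 14.8%, 34.2% against 25.9%, 22.4% against 15.9% and 13.8% against 9.57% on the same days. The lowest difference was 4.27 points and the highest 8.67 points, so the 2 sets kept their order in every library while the libraries themselves differed more widely. The mean difference was 6.16 points (SD over libraries 1.63, n = 9). A two-sided exact permutation test that flips the sign of each library's difference gave p = 0.0039, the smallest that 9 libraries allow, and 0.0059 after Benjamini-Hochberg adjustment over 3 such comparisons. The libraries are different conditions of 1 cell source and share the same windows. This p and the later ones over libraries thus describe the libraries and no wider set of cultures. As a ratio of medians the bidirectional level was between 1.29 and 1.51 times the single-start level.

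**Figure D1:**
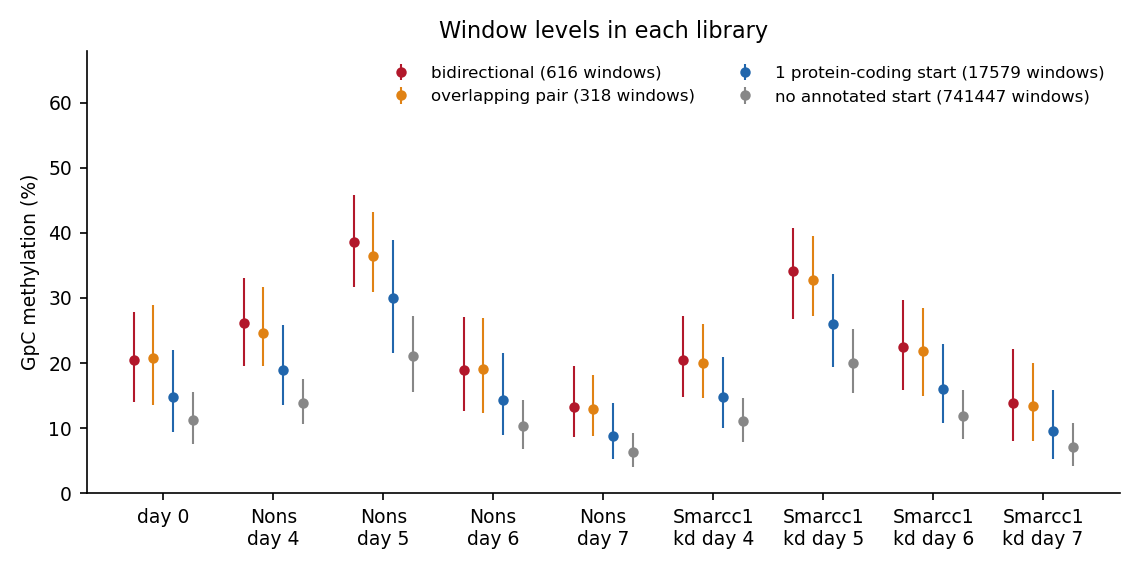
Median GpC methylation (percent, vertical axis) of bidirectional, overlapping-pair, single-start and no-start autosomal windows in each of the 9 libraries; bars span the lower to the upper quartile of windows. The bidirectional medians range from 13.2% to 38.7% and lie above the single-start medians in every library.

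The order held along the genome. Within single autosomes the bidirectional median was the higher one on 18 or 19 of 19 autosomes in each library, and the SD of the difference over autosomes was 2.01 to 2.98 points. The ranges of windows nevertheless overlapped widely. Between 67.5% and 79.1% of members lay above the single-start median of a given library, as did 17.9% to 32.2% of all autosomal windows. Only 92 of 616 members (14.9%) lay above it in all 9 libraries, against 0.22% of all autosomal windows and 4.64% of single-start windows. Above the autosomal median in all 9 libraries lay 221 members (35.9%), against 1.31% of all autosomal windows and 15.2% of single-start windows. Ranked among autosomal windows of its library, the average member stood at percentile 82.7 (median over members of the mean of 9 percentiles), and the average single-start window at percentile 67.6.

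The difference lay close to the starts. Windows centred within 500 bp of the pair's midpoint had a mean of library medians of 23.9%, and windows 1 kb away on either side had 20.04%. At 2 kb the values were 14.4% and 14.2%, and from 3 to 10 kb they lay between 12.3% and 13.3%. Around single starts the corresponding values were 17.99% at the start, 16.5% at 1 kb and 13.7% and 14.0% at 2 kb, with 12.8% to 13.1% further out. The profile of bidirectional promoters was higher at its centre, and from 3 kb outwards both profiles lay within these narrow ranges.

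**Figure D2:**
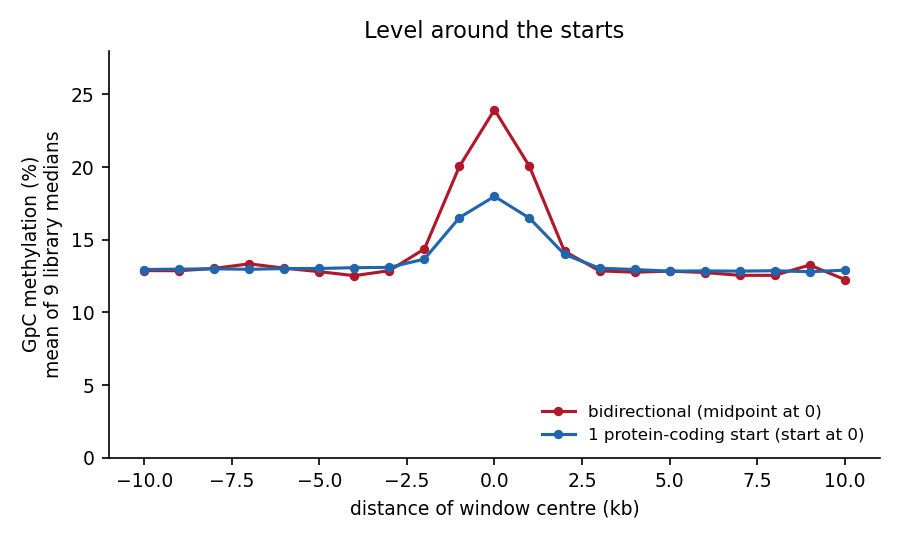
Mean over 9 libraries of the median GpC methylation (percent) of windows, by the distance in kb of the window's centre from the midpoint of a diverging pair or from a single protein-coding start. Bidirectional promoters peak at 23.9% and single starts at 17.99%, and both curves lie near 13% beyond 3 kb.

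Bidirectional windows differed from single-start windows in base composition as well as in their number of starts. Their median GC content was 51.8% against 48.8%, and 42.4% in windows with no annotated start. Their CpG density was 3.94 per 100 bp against 2.09 and 0.763. They held 10.7 scorable GpC cytosines per 100 bp against 10.004, and they were shorter (2178.5 against 2347 bp). In the 300 bp centred on the midpoint or the start, members held a median of 25 CpG and single starts held 12. CpG density here is a property of the sequence, not methylation at CpG.

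Much of the difference in level was absent when windows of like CpG density were compared. Among windows with 3 to 4 CpG per 100 bp, 155 members had a mean level of 23.0% and 2258 single-start windows had 21.0%. In the bands from 1 to 8 CpG per 100 bp the difference was 1.66 to 3.58 points, and it was positive in 8 or 9 of 9 libraries. With fewer than 1 CpG per 100 bp only 6 members remained, and they differed from single starts by 0.710 points (higher in 5 of 9 libraries). With single-start windows weighted to the CpG density of the members, an alternative chosen after seeing the data, the mean difference fell from 6.16 to 2.00 points, was positive in 9 of 9 libraries, and gave p = 0.0039 in the exact sign-flip permutation test. Weighting by GC content alone left 4.63 points. Within GC bands of 5 percentage points from 35% to 65% the difference ran from 2.45 to 7.35 points.

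**Figure D3:**
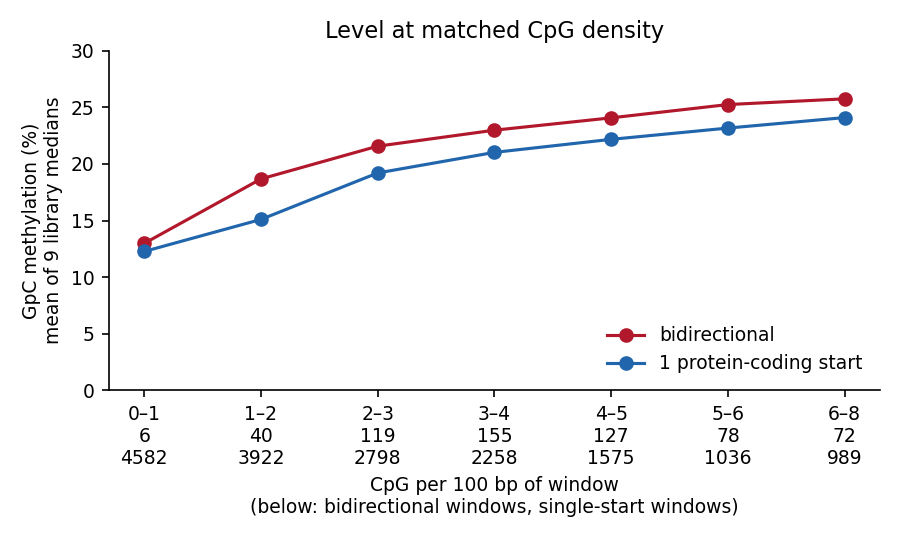
Mean over 9 libraries of the median GpC methylation (percent) of bidirectional and single-start windows in bands of CpG density (CpG per 100 bp, horizontal axis, with the numbers of windows in each band). The level rises with CpG density in both sets, and the gap between the curves is 0.710 to 3.58 points.

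Head-to-head pairs whose transcripts overlap were close to the diverging pairs. In 318 windows with an overlapping pair and no diverging one, the medians differed from those of members by between -0.271 and 2.24 points. The members were higher in 7 of 9 libraries, with a mean difference of 0.739 points (SD 0.834, n = 9). The exact sign-flip permutation test gave p = 0.0195, which was also the adjusted value. It describes the 9 libraries, which share these windows, and no wider set of promoters. CpG density was similar in both kinds of window, at 3.89 per 100 bp in overlapping pairs. Several familiar head-to-head pairs are of this kind in the annotation, including Hspd1/Hspe1, Surf1/Surf2 and Col4a1/Col4a2. Smarcc1 itself belongs to this group, because its first 122 bp overlap with the helicase gene Dhx30 on the other strand. Its start window (chr9:110117185-110119155) is therefore not a member.

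Accessibility rose with the distance between the 5′ ends. The mean over libraries of the median level was 21.5% in 120 windows with 5′ ends 1 to 50 bp apart and 21.9% in 163 windows at 51 to 100 bp. It was 23.8% in 171 windows at 101 to 200 bp, 25.3% in 73 windows at 201 to 300 bp and 26.2% in 48 windows at 301 to 500 bp. At 501 to 1000 bp it was 24.5% in 41 windows, below the preceding bin. Members with ends over 200 bp apart exceeded those with ends 100 bp or less apart in every library, by 1.95 to 6.08 points. The mean difference was 3.61 points (SD 1.26, n = 9; exact sign-flip permutation p = 0.0039, adjusted 0.0059). This p likewise describes the 9 libraries, which share these windows, and no wider set of promoters. CpG density changed less along this order, from 3.95 per 100 bp at 1 to 50 bp to 4.32 at 301 to 500 bp. The GC content went from 51.5% at 1 to 50 bp to 54.3% at 501 to 1000 bp. The part of base composition in this difference was not tested.

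**Figure D4:**
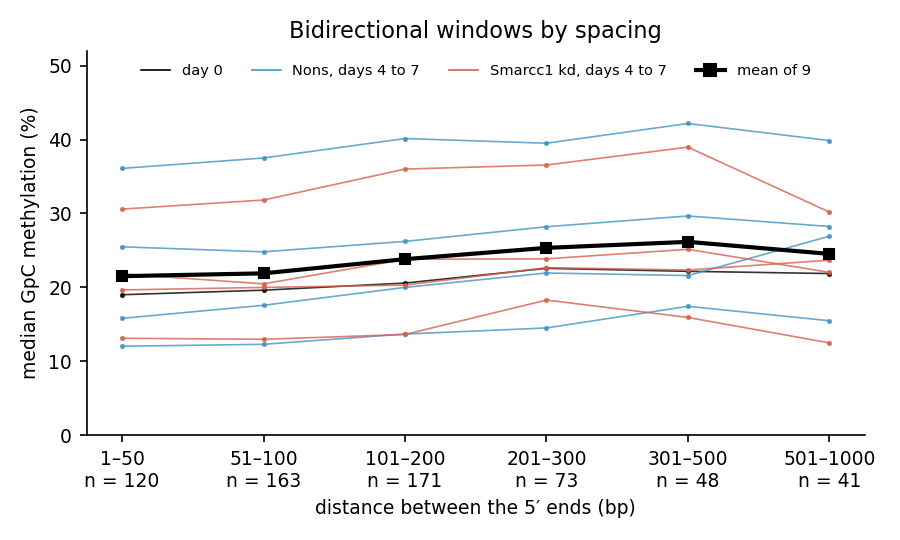
Median GpC methylation (percent) of bidirectional windows by the distance between their 5′ ends (bp). Thin lines are the 9 libraries and the thick line is their mean, which goes from 21.5% at 1 to 50 bp to 26.2% at 301 to 500 bp and 24.5% at 501 to 1000 bp.

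The pairs nearest to the 1000 bp limit from inside were Asphd1/Sez6l2 and Btf3l4/Txndc12, with 5′ ends 981 and 987 bp apart and mean levels of 25.7% and 29.0%. Just outside it, Psd/Fbxl15, Acsbg2/1700061G19Rik and Ushbp1/Babam1, at 1028, 1030 and 1059 bp, had 23.98%, 11.8% and 19.9%.

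Sequence motifs known from promoters of housekeeping genes were more frequent in the 300 bp around the midpoint of the members than around single starts. Both strands were searched, and matches of different motifs may overlap. The ETS motif CCGGAAGT, bound by ETS family activators, occurred in 14.1% of members and 4.35% of single starts. The YY1 motif AAGATGGC occurred in 9.09% against 3.11%, the core CGCATGCG of the site of NRF1, a regulator of nuclear genes for mitochondria, in 4.87% against 2.02%, and the CRE motif TGACGTCA in 4.87% against 2.20%. The E-box CACGTG was found in 11.5% against 7.17% and CCAAT, bound by NF-Y, in 43.8% against 36.1%. TATAAA went the other way, with 4.22% of members against 11.5% of single starts. The 300 bp had a median GC content of 62.3% in members and 57.3% at single starts. Their median number of CpG was 25 in members and 12 at single starts. The letters CCGGAAGT, CGCATGCG, TGACGTCA and CACGTG contain CpG, while AAGATGGC and CCAAT do not. Member regions were centred between the starts of a pair, and the others on a single start. The part of base composition or of the number of starts in these shares was not tested. The shares are letter matches and no measure of binding. Members with CCAAT had a median level over 9 libraries of 24.9% and those without it 22.7%, while members with the ETS motif had 22.4% and those without it 23.9%.

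Among 28 well-known head-to-head pairs listed from textbook knowledge, 12 were members, 11 overlapped, 3 were not within 1 kb of each other and 2 were divided between windows. Several of the 12 join genes of genome maintenance. Atm, the kinase that responds to double-strand breaks, shares its promoter with Npat, a coactivator of histone genes. The Atm/Npat window (chr9:53535467-53537596) stood at 32.6% at day 0, at 56.8%, 42.3%, 51.7% and 19.3% in the Nons control on days 4 to 7, and at 19.7%, 53.9%, 38.9% and 25% in the knockdown. Its mean of 37.8% was the highest of the 12, and the 2 arms overlapped. Values of single windows, here and below, come from 1 library each at unknown depth, and their measurement error was not estimated.

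Brca1, of homologous recombination, faces Nbr1, an autophagy receptor. That window (chr11:101551847-101554030) had 31.9% at day 0, 45.9%, 46.4%, 22.8% and 25% in the Nons control and 35.2%, 44.8%, 48.1% and 27.9% in the knockdown, with a mean of 36.5%. Mcm4, a subunit of the replicative helicase, faces Prkdc, the catalytic subunit of the kinase of non-homologous end joining. The Mcm4/Prkdc window (chr16:15636709-15638742) had 40.5% at day 0, 27.1%, 29.2%, 35.1% and 4.17% in the Nons control and 38.2%, 34.8%, 57.8% and 26.7% in the knockdown. It was the only one of the 12 with a higher value in the knockdown on all 4 days, and its mean was 32.6%. Higher on all 4 days were 3.08% of members and 4.95% of all autosomal windows.

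Other pairs with repair genes had means below the median of the members, 23.6%. Tsc2, an inhibitor of mTORC1, faces Nthl1, a DNA glycosylase of base excision repair, and Osgep, of tRNA modification, faces Apex1, the apurinic endonuclease of the same repair pathway. The Tsc2/Nthl1 window had 19.3% at day 0, 11.9%, 38.7%, 17.2% and 16.9% in the Nons control and 8.51%, 31.2%, 24.4% and 27.3% in the knockdown. The Osgep/Apex1 window had 14.8% at day 0, 20.4%, 36.7%, 31.8% and 9.33% in the Nons control and 15.2%, 33.0%, 19.05% and 8.82% in the knockdown. Both windows were highest on day 5 in each arm, and their means were 21.7% and 21.0%. On each of the 4 days the knockdown value of Osgep/Apex1 lay below its control, as in 7.31% of members and 6.82% of all autosomal windows. Its day 5 difference of -3.68 points became 0.159 points after quantile normalization. The window of Trp53, which encodes p53, and Wrap53, which encodes a Cajal body protein needed by telomerase, ranged from 3.23% to 45.3% with a mean of 25.6%.

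Genes of translation and protein turnover also shared promoters. The Psmb1/Tbp window, of a proteasome subunit and the TATA-binding protein, had 41.2% at day 0, 32.6%, 40.7%, 4.92% and 11.8% in the Nons control and 12.5%, 26.7%, 32.6% and 16.5% in the knockdown, with a mean of 24.4%. The Mrps12/Sars2 window, of a protein of the mitochondrial ribosome and the mitochondrial seryl-tRNA synthetase, had 17.8% at day 0, 23.4%, 33.7%, 25.5% and 18.4% in the Nons control and 23.4%, 44.2%, 36.4% and 11.5% in the knockdown. Its mean was 26.03%, and its highest value in each arm was on day 5.

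The lowest means of the 12 were 15.5% at Ddx49/Cope, an RNA helicase and a subunit of the COPI coat, and 17.4% at Recql4/Lrrc14, of which Recql4 is a DNA helicase. The Col4a4/Col4a3 window, of 2 chains of basement membrane collagen that are restricted to few tissues, averaged 20.5% and had only 1.76 CpG per 100 bp. It stood at 23.2% at day 0, at 14.8%, 21.8%, 20% and 6.06% in the Nons control and at 34.4%, 19.2%, 34.9% and 10.5% in the knockdown. Its knockdown values were higher on 3 of 4 days.

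The extremes of the members were defined by their values and are given as a description. The 5 highest means were 49.3% at Zbtb25/Zbtb1, a pair of BTB zinc finger factors, 44.4% at L3hypdh/Jkamp, 43.1% at Ccdc92/Zfp664, 42.4% at Tbc1d10b/Mylpf and 42.0% at Prr11/Ska2, of which Ska2 acts at kinetochores. The 5 lowest were 10.8% at Eif3i/Tmem234, 11.1% at Fam217a/4933417A18Rik, 11.9% at Dgcr2/Tssk2, 12.3% at Il11/Tmem190 and 12.6% at Pecam1/Milr1. Among the genes of the low windows, Eif3i encodes a subunit of a translation initiation factor, Tssk2 a testis kinase, Il11 a cytokine and Pecam1 an endothelial adhesion molecule. Of these 5 windows, Eif3i/Tmem234 had 3.96 CpG per 100 bp and the other 4 had 0.700 to 1.56. The 5 highest windows had between 4.23 and 12.2.

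The spacers of 2 of the highest and 3 of the lowest windows show this contrast in sequence. They were chosen after their values were seen, among spacers with no exonic base, and are printed in the same way. Not printed are, among others, Tbc1d10b/Mylpf and Prr11/Ska2 of the highest windows, with 4.23 and 4.76 CpG per 100 bp of window. Nor is Eif3i/Tmem234 of the lowest, with 3.96. The first 2 spacers printed are from the highest windows.

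L3hypdh/Jkamp, chr12:72085440-72085588: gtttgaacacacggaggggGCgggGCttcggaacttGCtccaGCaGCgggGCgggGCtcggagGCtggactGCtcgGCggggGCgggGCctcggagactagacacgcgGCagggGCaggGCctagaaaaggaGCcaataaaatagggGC
Ccdc92/Zfp664, chr5:124862425-124862690: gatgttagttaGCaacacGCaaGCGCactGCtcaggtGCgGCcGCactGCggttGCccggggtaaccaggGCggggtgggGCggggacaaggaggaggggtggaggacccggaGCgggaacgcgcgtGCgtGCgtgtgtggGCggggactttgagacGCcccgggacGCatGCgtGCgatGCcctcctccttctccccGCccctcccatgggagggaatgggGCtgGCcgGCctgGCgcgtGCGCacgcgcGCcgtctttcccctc
Fam217a/4933417A18Rik, chr13:34924311-34924408: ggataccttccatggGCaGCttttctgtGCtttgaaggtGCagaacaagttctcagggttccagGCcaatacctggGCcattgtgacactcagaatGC
Dgcr2/Tssk2, chr16:17898563-17898636: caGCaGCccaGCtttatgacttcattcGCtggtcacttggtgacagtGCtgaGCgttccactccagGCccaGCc
Il11/Tmem190, chr7:4782860-4782936: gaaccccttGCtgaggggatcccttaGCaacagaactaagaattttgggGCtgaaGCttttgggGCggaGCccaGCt

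The L3hypdh/Jkamp and Ccdc92/Zfp664 spacers held 12 and 30 CpG and had GC contents of 67.8% and 71.4%. The 3 low spacers held 0, 2 and 1 CpG, with GC contents of 51.02%, 58.1% and 54.5%. The Ccdc92/Zfp664 spacer contained 1 match to the NRF1 core, and the spacers of L3hypdh/Jkamp and Fam217a/4933417A18Rik contained 1 CCAAT box each.

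Grouped by function, histone gene pairs stood above the other lists. The 11 bidirectional windows with histone genes had a median level over 9 libraries of 32.9% (range 15.1% to 38.0%), against 23.6% for all members and 26.9% for 40 single-start histone windows. Their 5′ ends lay further apart than in the other members (median 243 bp) and their GC content was lower (47.2%). Histone genes are near-identical copies, so the placement of their reads is uncertain.

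The other lists lay closer to the level of all members. DNA replication and repair genes were found in 29 windows with a median of 23.2%, respiratory chain and ATP synthase genes in 19 with 23.3% and mitochondrial ribosomal proteins in 15 with 21.0%. Zinc finger genes were found in 16 windows with 25.4%, cytosolic ribosomal proteins in 9 with 23.1%, proteasome genes in 7 with 24.4% and aminoacyl-tRNA synthetases in 5 with 25.8%. Lineage transcription factors and signals, of which there are 174 autosomal genes, were found in 3 bidirectional windows (22.8%) and in 152 single-start windows. Of 27 BAF subunit genes 1, Brd9, was in a member, at 24.6%. Of all 20807 autosomal protein-coding genes, 1247 were in the pairs of member windows. In these other lists the single-start windows with genes of the same list had medians of 20.1% to 23.9%. They exceeded the bidirectional windows for the mitochondrial (21.8%) and the cytosolic (23.9%) ribosomal proteins.

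During differentiation of the Nons control the members followed the level of the whole library. From day 0 the median change of a member was 5.74 points on day 4, 17.0 points on day 5, -0.954 points on day 6 and -6.11 points on day 7, with an SD over autosomes of 1.94, 2.65, 3.63 and 2.91 points. In windows with no annotated start the median changes were 2.65, 9.60, -0.887 and -4.66 points. As log2 ratios of the medians, the changes were 0.35, 0.91, -0.12 and -0.64 in members and 0.31, 0.91, -0.13 and -0.82 in windows with no start. At day 5, 90.3% of members exceeded their day 0 value, against 86.9% of single-start windows and 83.5% of windows with no start. Day and library cannot be told apart in these data.

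Between the Smarcc1 knockdown and the Nons control, the level of bidirectional promoters was lower on days 4 and 5 and higher on day 6. The median difference of a member was -5.46 points on day 4 (SD over autosomes 2.16), -5.39 on day 5 (2.13), 3.02 on day 6 (2.79) and 0.263 on day 7 (2.95). Lower in the knockdown were 421 of 616 members (68.3%) on day 4, against 66% of all autosomal windows. The counts were 406 (65.9%) on day 5 against 53.9%, 241 (39.1%) on day 6 against 41.9%, and 301 (48.9%) on day 7 against 45.3% of all autosomal windows. The mean over the 4 days was -1.89 points (SD 4.23, n = 4), and the exact sign-flip permutation test gave p = 0.5. With 4 pairs this test cannot reach 0.05, and its smallest p is 0.13.

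The whole library moved in the same direction on each day. The autosomal median of the knockdown minus that of the Nons control was -2.84, -1.01, 1.56 and 0.733 points on days 4 to 7. Relative to this shift the median difference of members was -2.61, -4.38, 1.46 and -0.469 points. After quantile normalization it was -2.66, -1.06, 1.76 and -2.60 points. Days 4, 5 and 6 thus kept their sign under both scalings and day 7 changed it.

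The difference between knockdown and control was not shown to be larger at bidirectional than at single-start promoters. Single-start windows changed by -3.97, -3.40, 1.59 and 0.766 points, which left an excess for members of -1.49, -1.99, 1.43 and -0.503 points. The excess was negative on 15 of 19 autosomes on day 4, on 15 on day 5, on 5 on day 6 and on 11 on day 7. The mean excess was -0.639 points (SD 1.51, n = 4; exact sign-flip permutation p = 0.375). As a log2 ratio of medians, members changed by -0.35, -0.18, 0.25 and 0.07 and single starts by -0.36, -0.21, 0.16 and 0.13. On that scale the mean excess had the opposite sign, 0.02 (exact permutation p = 0.625).

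**Figure D5:**
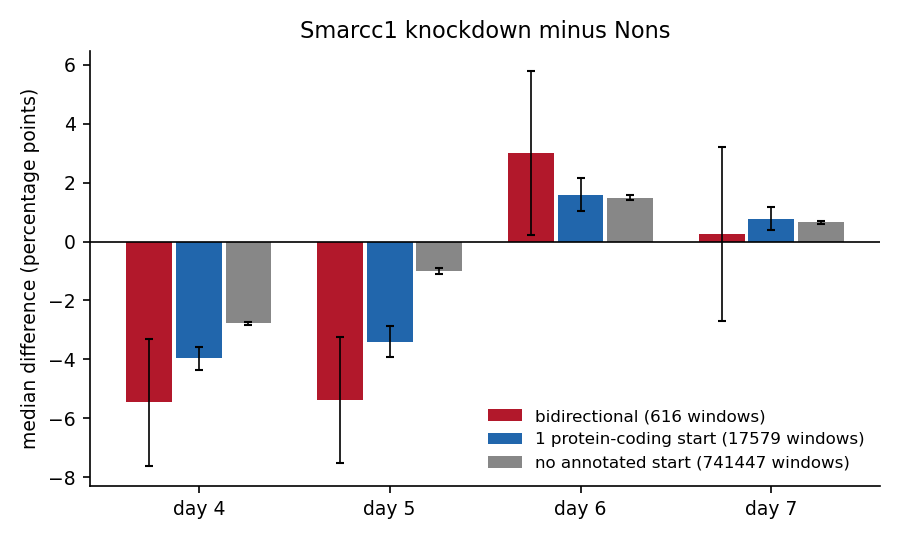
Median over windows of Smarcc1 knockdown minus Nons GpC methylation (percentage points) on days 4 to 7, for bidirectional, single-start and no-start windows; error bars are the SD over 19 autosomes of the median within each autosome. Bidirectional bars are -5.46, -5.39, 3.02 and 0.263 points, and all sets share their sign on each day.

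For single windows, limma with day as a block was fitted across 829493 windows of the autosomes and X, with the Nons control and knockdown libraries of days 4 to 7. At an adjusted p under 0.05 it called 0 members and 0% of all windows. At an unadjusted p under 0.05, 67 members (10.9%) were lower in the knockdown, against 2.65% of all windows and 7.54% of single-start windows. A further 22 members (3.57%) were higher, against 1.58% of all windows and 2.79% of single-start windows. Lower values made up 62.6% of all windows under that p, but 52.1% with libraries centred on their autosomal medians. In that centred fit 62 of the 616 members were lower, against 2.42% of all windows, and 25 were higher, against 2.22%. Member counts of the other fits are also out of 616, and single-start shares were counted only in the first fit. On the arcsine square root scale 49 members were lower, against 2.74% of all windows, and 17 were higher, against 1.77%. In a fit of only the 19643 windows with a protein-coding start, 34 members were lower, against 3.61% of those windows. In the same fit 8 members were higher, against 1.17%. Levels of members were more spread over windows than those of windows with no start. In the Nons control at day 4 the SD was 10.2 points in members, 9.23 in single-start windows and 5.46 in windows with no start. The part of this spread in the shares of members at an unadjusted p under 0.05 was not tested. None of the 12 well-known pairs passed, with adjusted p of 0.995 to 0.999. Without day 5, 45 members were higher against 1.82% of all windows, and without day 6, 13 were higher against 1.15%.

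Few members kept 1 direction over all 4 days. Lower in the knockdown on every day were 45 members (7.31%), against 6.82% of all autosomal windows and 8.36% of single-start windows. Higher on every day were 19 members (3.08%), against 4.95% of all autosomal windows and 3.84% of single-start windows. The windows named next were picked among members with 1 sign on all 4 days, by the size of their mean difference, and carry no test. The largest mean rises were 18.8 points at Mmab/Mvk, 15.5 at Mcm4/Prkdc, 13.4 at Bag4/Lsm1, 13.1 at Mepce/Zcwpw1 and 12.7 at Fam219a/Dnaic1. Without day 5 the mean rise at Fam219a/Dnaic1 was 6.91 points, and without day 4 that at Mepce/Zcwpw1 was 8.33 points. Mvk encodes mevalonate kinase of sterol synthesis, and its partner Mmab encodes a cobalamin adenosyltransferase. The Mmab/Mvk window (chr5:114444040-114446017) had 15.6%, 21.1%, 31.7% and 4.17% in the Nons control and 25.97%, 38.4%, 56.5% and 27.1% in the knockdown, with 10.4% at day 0. Every knockdown value exceeded the control of its day, as the choice of windows required, but the ranges of the arms overlapped.

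The largest mean falls were 23.0 points at Efcab11/Tdp1, 21.7 at Nop14/Grk4, 21.2 at the window of Mrto4, Emc1 and Ubr4, 17.7 at Hist1h2bl/Hist1h2ai and 16.9 at Dido1/Gid8. Tdp1 is a DNA repair enzyme that releases topoisomerase from DNA ends. Its window (chr12:99884370-99886323) had 43.9%, 38.2%, 37.7% and 41.8% in the Nons control and 25%, 34.6%, 5% and 5.19% in the knockdown, with 32.2% at day 0. The Mrto4, Emc1 and Ubr4 window (chr4:139351814-139353819) had 27.4%, 36.7%, 28.8% and 15.7% in the Nons control and 0%, 11.7%, 12.1% and 0% in the knockdown, with 35.4% at day 0. In both windows every control value exceeded every knockdown value. Both were picked by the size of their fall, so this separation is a description and carries no test. The depth behind the values of 0% is unknown. After quantile normalization the day 5 difference of Efcab11/Tdp1 and of Dido1/Gid8 became positive, at 0.371 and 0.361 points.

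The levels of single windows were only weakly correlated between libraries. Across the 616 members, the Pearson correlation between the levels of 2 libraries had a median of 0.226 over 36 library pairs (range 0.113 to 0.343), against 0.316 over single-start windows and 0.0827 over windows with no start. These are correlations across windows, which are not independent replicates, differ in base composition and share a library. The libraries compared also differ in day or arm, so the part of measurement error in these values was not tested.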

How the data were processed

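NOMe-seq libraries of 9 samples were analysed, with groups and days taken from the sample titles. Reads had been trimmed (trim_galore) and aligned by the authors with bismark to mm10 masked at FVB/CAST variants. Calls came from bismark_methylation_extractor, and coverage2cytosine filtered them to GpC positions. Each deposited value was taken as the percent GpC methylation of a Seqmonk window of 200 read positions. Whether calls were pooled or positions averaged within a window was not checked. The study averages over another number of positions and applies an enrichment normalization for its plots. Library medians of the deposited values differed, so they were treated as not normalized. A library may thus be higher as a whole for reasons such as methyltransferase activity or bisulfite conversion. Depth is unknown and no binomial interval was computed. Versions of bismark are not given in the sources used here.

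Genes were taken from GENCODE M21, and sequences and base composition from GRCm38, the assembly of mm10. Windows with a value in all 9 libraries were used, which left out 3.45% of member windows, 2.90% of single-start windows and 0.420% of autosomal windows. A member held at least 1 diverging pair, and where it held several the smallest distance was used. Levels were summarised as medians over windows. Differences were tested over libraries or over same-day pairs with two-sided exact sign-flip tests (permutation), and the SD over autosomes is given as a spread within a library. Same-day libraries were paired by the day in their titles. Single windows were tested with limma 3.58.1 (R 4.3.3) on the percent scale, with Benjamini-Hochberg adjustment over all windows, and the code was tested on simulated data. The other scripts used Python 3.11.15 with numpy, pandas, scipy and pysam. Named pairs were 28 well-known head-to-head pairs, the 5 highest and 5 lowest members by mean level, and the 5 largest mean rises and falls among members with 1 sign on all 4 days. Some pairs named by these rules are not reported here, though they count in the totals. The members, lists and tests were chosen with earlier results of these data known. Alternatives covered averaging, filters, library scaling, pair definition, base composition and leaving out each day.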

Additional observations from a re-analysis of the deposited data

Results flagged for a closer look

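The knockdown minus Nons difference in bidirectional windows had opposite signs on different days. It was -5.46 points on day 4 and -5.39 points on day 5 but 3.02 points on day 6, each larger than its SD over autosomes. With 1 pair of libraries per day the difference between days was not tested. The autosomal median of the knockdown minus that of the Nons control changed sign in the same way, from -2.84 and -1.01 to 1.56 points, and the part of this library-wide shift was not separated from the day.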

How the results depend on the processing

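The higher level of bidirectional windows kept its sign and its side of the threshold under every alternative run. The mean difference lay between 2.00 points (single-start windows weighted to the members' CpG density) and 6.75 points (starts at least 300 bp inside the window), and between 5.51 and 6.68 points without 1 of the 5 days. CpG weighting, chosen after seeing the data, lowered it to between 0.498 and 3.34 points in the single libraries. Pairs 300 bp or less apart gave 5.84 points and windows with no other annotated start 6.40. The mean knockdown minus Nons difference of members lay between -3.53 points without day 6 and -0.703 points without day 4, and the mean excess over single starts lay between -1.33 and -0.188 points when 1 day was left out; with at most 4 pairs their tests could not pass in any alternative. The excess reversed to 0.016 on the log2 scale, where members and single starts are each compared with their own level. On day 4 the difference of members moved from -5.46 to -2.61 with centring and -2.66 with quantile normalization, and on day 5 from -5.39 to -1.06 with quantile normalization. The limma fit called 0 windows in each of its 10 alternatives, including the fits without 1 day. Without day 4, lower values made up 40.6% of windows at an unadjusted p under 0.05, with 47 members lower and 37 higher against 1.73% and 2.52% of all windows, and without day 6 they made up 74.0%, with 89 lower and 13 higher against 3.28% and 1.15%. The titles give no replicate numbers, so pairing came from the day alone. Without the day block 28 members were lower and 6 higher at that p, against 0.46% and 0.254% of all windows. Depth per window is unknown, and 5.19% of members were at 0% in the knockdown at day 7, as were 5.43% of single-start windows.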

Other observations

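The X chromosome held 14 windows with a diverging protein-coding pair and 830 with 1 protein-coding start, which entered only the limma fit above. The medians of the 14 windows were 19.3% at day 0, 24.2%, 39.1%, 18.9% and 9.14% in the Nons control and 23.5%, 29.5%, 21.1% and 11.0% in the knockdown. They exceeded those of X single-start windows in 9 of 9 libraries, by 1.78 to 10.8 points. With 14 windows these medians are imprecise.

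Pairs divided by a window boundary left 140 single-start windows next to them. Their medians lay between those of all single-start windows and those of bidirectional windows in all 9 libraries, 0.725 to 5.01 points above the former and 1.18 to 5.78 points below the latter.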
